A study of Mus musculus with 16 samples.

Results

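Chromosome 3 holds 41139 of the 1305107 significant RNA–DNA pairs of the Input table and 38324 of the 1415135 pairs of the H3K27me3-RADIP table, counting pairs whose RNA tag and DNA tag both lie on it. The chromosome was chosen by its share of the pairs, which is lower in H3K27me3-RADIP in these same tables, so that the differences between the tables given here describe it and carry no test. In RADIP, RNA is ligated to nearby chromatin DNA by way of a bridge adaptor, and fragments carrying a histone mark are then pulled down. The cells were untreated mouse embryonic stem cells (mESCs) of the line PGK12.1, all fixed with 1% formaldehyde. In the H3K27me3-RADIP group the lysate was selected with an antibody against H3K27me3, and for the Input group a portion of the same lysate was set aside without antibody. The labels list 8 libraries per group, whereas the paper counts 4 biological replicates per group. Which libraries form a replicate is not given. The authors merged the replicates into 1 table per group, so no replicate error can be given and intervals cover counting error only.

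Each table line is a pair, an RNA tag with its DNA tag, placed here in 25-kb bins and 1-Mb windows of mm10. Each combination of an RNA and a DNA bin had passed the authors' limit on the adjusted P-value, with at least 7 pairs per combination on chromosome 3 and a median of 12 in both tables. Pairs were compared as ppm, that is pairs per 1000000 pairs of their own table, and as the log2 ratio of H3K27me3-RADIP over Input. A share is relative to all pairs of its table, and an absolute gain or loss of contacts cannot be told apart from a shift on other chromosomes. Because the cells were pooled, fewer cells with a contact and fewer contacts per cell cannot be told apart either. The labelled cell type was checked over all chromosomes against marker RNAs, giving Input before H3K27me3-RADIP here and in every further set of values. The stem cell markers with pairs numbered 5 and 6 of 10 and summed to 2992 and 3118 pairs, mostly from Esrrb, whereas Pou5f1, Nanog, Tdgf1 and Dppa4 were at 0 in both tables. Of 4 fibroblast markers, 1 and 2 had pairs, 11 and 19 in sum, and of 4 primitive endoderm markers Gata4 and Gata6 had 38 and 56 in sum.

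H3K27me3 is the trimethyl mark that Polycomb repressive complex 2 places on histone H3, and in mESCs it covers CpG-rich starts of developmental genes that are kept silent. Most RNA found on chromatin in such assays is unspliced RNA still close to the gene that makes it, so a pair usually joins a transcript to its own gene body or to neighbouring DNA. Pairs that span longer distances can come from DNA that folds back to the gene or from RNA that has moved away from it.

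The promoters of 5 RNAs that shifted between the tables are shown, because CpG-rich starts are the DNA on which the H3K27me3 mark is best known. They are the 250 bases before the transcription start in RefSeq (GRCm38.p6), written 5′ to 3′ on the strand of the gene with each CG in capitals, and were taken from RNAs named for a loss or a gain whose RefSeq start lies within 5 bases of the GENCODE start.
Jade1, chr3:41555484-41555733, plus strand: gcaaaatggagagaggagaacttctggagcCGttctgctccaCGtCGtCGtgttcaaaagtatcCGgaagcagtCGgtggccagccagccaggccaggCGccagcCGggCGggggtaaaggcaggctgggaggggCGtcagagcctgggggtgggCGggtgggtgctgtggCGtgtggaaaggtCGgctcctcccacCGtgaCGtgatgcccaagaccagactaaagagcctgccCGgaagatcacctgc
Pdgfc, chr3:81036166-81036415, plus strand: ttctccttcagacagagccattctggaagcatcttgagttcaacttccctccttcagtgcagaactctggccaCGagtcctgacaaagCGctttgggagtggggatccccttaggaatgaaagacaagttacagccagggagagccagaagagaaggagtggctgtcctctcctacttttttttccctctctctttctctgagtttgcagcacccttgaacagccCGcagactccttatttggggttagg
Pkn2, chr3:142882005-142882254, minus strand: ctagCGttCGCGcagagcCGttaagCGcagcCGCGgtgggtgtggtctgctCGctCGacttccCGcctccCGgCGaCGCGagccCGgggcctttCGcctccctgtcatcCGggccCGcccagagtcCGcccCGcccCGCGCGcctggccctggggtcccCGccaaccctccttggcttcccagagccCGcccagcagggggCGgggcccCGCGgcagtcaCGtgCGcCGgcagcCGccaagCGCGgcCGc
Kcnn3, chr3:89519914-89520163, plus strand: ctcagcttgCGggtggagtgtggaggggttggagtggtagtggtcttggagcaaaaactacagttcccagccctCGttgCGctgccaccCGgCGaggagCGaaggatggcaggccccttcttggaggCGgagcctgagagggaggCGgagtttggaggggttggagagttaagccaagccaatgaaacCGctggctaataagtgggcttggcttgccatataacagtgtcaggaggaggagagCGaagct
Pde4dip, chr3:97888708-97888957, minus strand: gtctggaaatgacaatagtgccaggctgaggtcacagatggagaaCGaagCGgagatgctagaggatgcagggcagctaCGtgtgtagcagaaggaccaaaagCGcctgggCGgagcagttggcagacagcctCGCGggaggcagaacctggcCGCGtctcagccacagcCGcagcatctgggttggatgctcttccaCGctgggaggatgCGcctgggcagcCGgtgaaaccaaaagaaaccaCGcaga
The number of CG dinucleotides differed widely among the RNAs that lost share, with 16 before Jade1, 3 before Pdgfc and 35 before Pkn2. The promoters of Kcnn3 and Pde4dip, which gained share, had 10 and 14. Of the 32851 RefSeq promoters, 2.97% held as many as that of Pkn2 and 71.0% as many as that of Pdgfc. Over the 109 RNAs with at least 100 pairs and a RefSeq promoter, the Spearman correlation of the CG number with the log2 ratio was -0.03.

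The pairs within chromosome 3 made up 3.15% of the Input table (95% Wilson interval 3.12 to 3.18) and 2.71% of the H3K27me3-RADIP table (2.68 to 2.74), a log2 ratio of -0.22. This was the lowest ratio among the 19 autosomes. The other 18 ranged from -0.11 on chromosome 16 to 0.21 on chromosome 7, and only chromosome X, at -0.40, lay lower. Chromosomes 4 and 5, the autosomes nearest in length, had log2 ratios of 0.04 and 0.05. Chromosome 3 was also thinly covered in both tables, with 197 ppm for each Mb of its length in Input and 169 in H3K27me3-RADIP, the lowest values of any autosome. In Input, chromosomes 4 and 5 had 390 and 389.

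The base composition of the chromosomes moved with these ratios. Chromosome 3 had a G+C content of 40.5%, the lowest of the autosomes, and chromosome X had 39.3%. Across the 19 autosomes the Spearman correlation of G+C content and log2 ratio was 0.81 and the Pearson correlation was 0.74, as a description of chromosomes that share the same 2 tables. The part of base composition in the lower share was not tested.

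**Figure D1:**
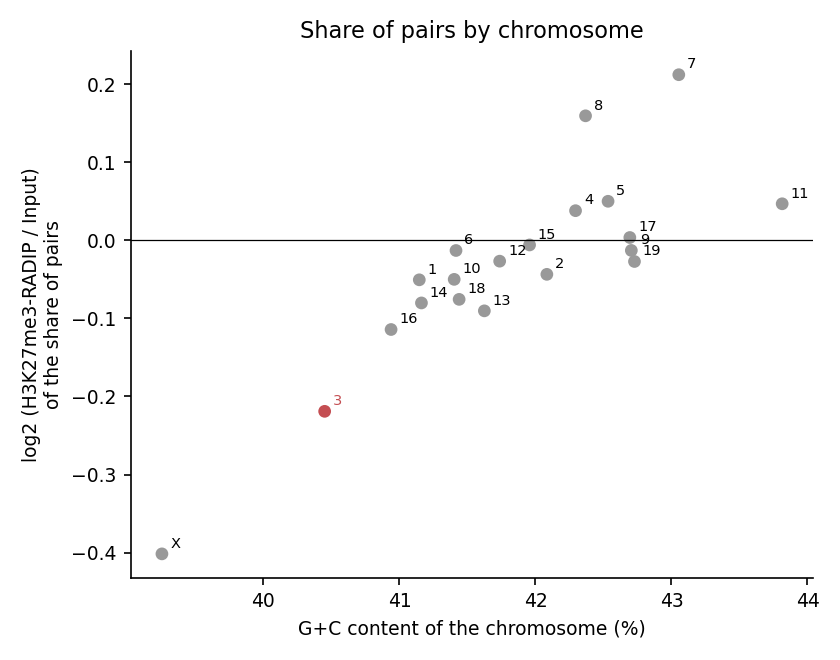
Log2 ratio of the share of pairs (H3K27me3-RADIP over Input) against the G+C content of each chromosome, 1 point per chromosome, with chromosome 3 in red. Chromosome 3, at 40.5% G+C and a ratio of -0.22, lies below every other autosome, and chromosome X lies lower on both axes.

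Along the chromosome the pairs gathered in few windows. Of its 161 windows of 1 Mb, set by the DNA tag, 121 held a pair in at least 1 table. The 5 windows with the most pairs held 19.8% of the chromosome's pairs in Input and 21.3% in H3K27me3-RADIP, and 50% of the pairs lay in 20 windows in Input and in 18 in H3K27me3-RADIP. The order of the windows was much alike in both tables, with a Spearman correlation of 0.97 of their pairs.

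The fullest windows were each led by an RNA transcribed there. The window from 9 to 10 Mb had 2576 pairs against 2192 in Input, and 88.1% of them came from Zfp704, a zinc finger gene. The window from 41 to 42 Mb had 2141 and 1700, of which Jade1, a subunit gene of the HBO1 histone acetyltransferase complex, supplied 93.8%. The window from 27 to 28 Mb had 1392 and 1413 pairs, led by Fndc3b. Those from 153 to 154 Mb and from 152 to 153 Mb had 1158 and 1305 pairs and 1247 and 1171 pairs, led by St6galnac3, a sialyltransferase gene, and Zzz3.

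The loss was spread over the chromosome. H3K27me3-RADIP had a lower share than Input in 83 of the 121 windows and a higher one in 38. The losses summed to -5483 ppm and the gains to 1043, a net of -4440. The window with the largest loss held 8.01% of the summed losses, the 5 largest held 24.8%, and 15 windows were needed for 50%. Chromosome 4, whose net change was a gain of 1623 ppm, also had a lower share in 79 of its 126 windows, with 26.4% of the losses in 5 of them, and its losses summed to -5967 ppm and its gains to 7589. Chromosome 5 had a lower share in 66 of 126 windows, with losses of -4344 ppm and gains of 6421. Both of these chromosomes held more pairs in Input, 60992 and 58997 ppm against 31522 on chromosome 3. Without the 5 windows of largest loss, an alternative added after the data were seen, the chromosome 3 share still had a log2 ratio of -0.17. The 4 stretches of 40 Mb along the chromosome had log2 ratios of -0.15, -0.31, -0.19 and -0.24, all below 0.

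**Figure D2:**
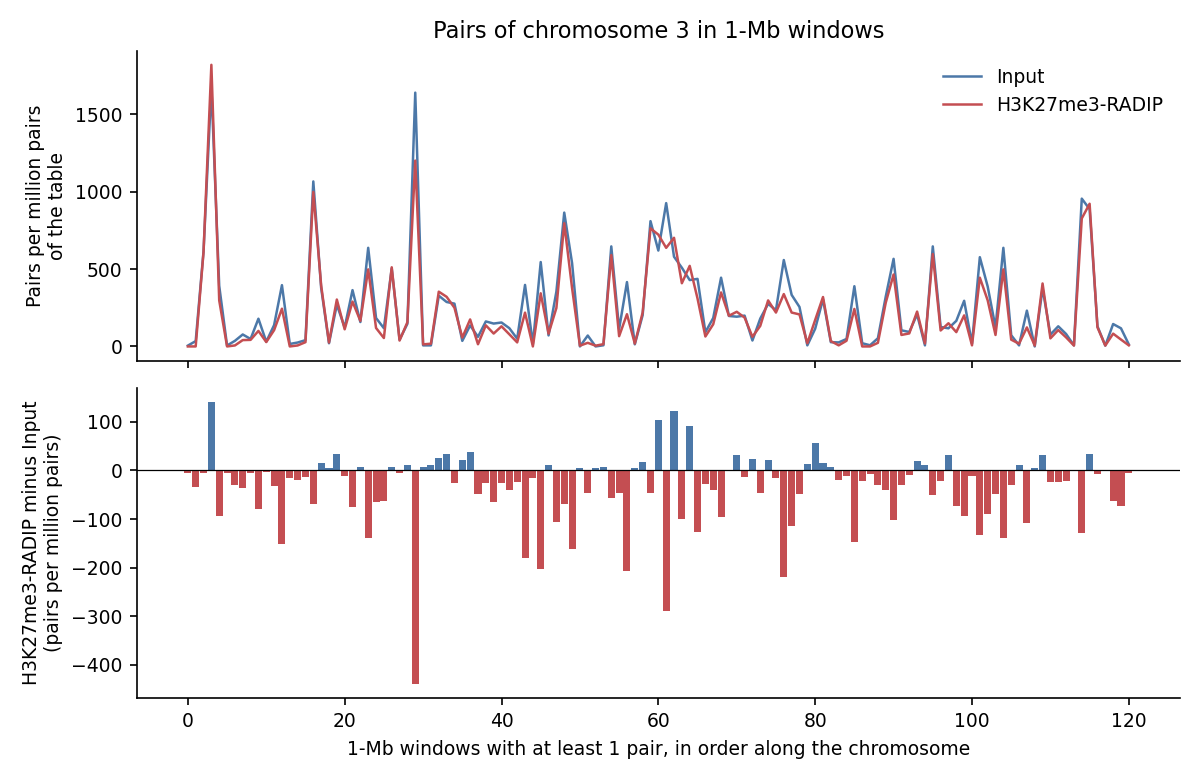
Pairs per 1000000 pairs (ppm) in the 121 windows of 1 Mb that held a pair, in order along chromosome 3, in Input (blue) and H3K27me3-RADIP (red), with the difference of the tables below (red bars for windows with a lower share in H3K27me3-RADIP, blue for a higher one). Losses stand in 83 windows along the whole length, and the deepest bar, -439 ppm, is the Jade1 window.

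Windows with at least 100 pairs over both tables were called lower or higher at a log2 ratio of 0.5 or more in size. Of 93 such windows on chromosome 3, 30 were lower, or 32.3%, against 18.7% of the 1822 windows of all chromosomes. Only 3 were higher, or 3.23%, against 9.66% of all. Their median log2 ratio was -0.30, compared with -0.07 over all windows, -0.07 on chromosome 4 and -0.03 on chromosome 5. When each chromosome was scaled by its own number of pairs, 18 windows of chromosome 3 were lower (19.4%, against 17.0% of all) and 5 were higher (5.38%, against 9.82%). With the chromosome's own total as the scale, the percentage of lower windows was close to that of all windows.

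The windows with the largest losses lay far apart and included different kinds of gene. The Jade1 window fell by 439 ppm, a log2 ratio of -0.45 (95% interval -0.54 to -0.36). In the window from 86 to 87 Mb, 1209 pairs in Input stood against 902, a log2 ratio of -0.54 (-0.67 to -0.41), and its pairs came from several genes that moved the same way. Lrba, which acts in vesicle traffic, went from 489 to 351 pairs there, Dclk2 from 383 to 274 and Sh3d19 from 293 to 244. The window from 103 to 104 Mb had 729 and 479 pairs, a log2 ratio of -0.72, with 154 and 106 from Trim33. That from 81 to 82 Mb had 543 and 295 pairs, a log2 ratio of -0.997, and every pair in it came from Pdgfc, which encodes a platelet-derived growth factor. The window from 65 to 66 Mb had 712 and 486 pairs, a log2 ratio of -0.67, with Tiparp as its leading RNA. Removing the leading RNA left log2 ratios of -1.06 in the window from 41 Mb, -0.50 in that from 86 Mb and -0.43 in that from 65 Mb. In these 3 windows the other RNAs were lower in sum as well. In the window from 41 Mb the other RNAs had 158 and 82 pairs. Of these, Sclt1 had 46 and 0, and its pairs in H3K27me3-RADIP may have missed the authors' limit.

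The largest gains were smaller. The Zfp704 window rose by 141 ppm, a log2 ratio of 0.12 (0.03 to 0.20). The window from 87 to 88 Mb had 757 and 994 pairs, a log2 ratio of 0.28, and that from 85 to 86 Mb had 809 and 1023, a log2 ratio of 0.22. In the latter, Fbxw7 went from 124 to 233 pairs. The windows from 89 to 90 Mb and from 107 to 108 Mb had 560 and 737 pairs and 149 and 242 pairs, and their leading RNAs were Adar, which edits adenosines in double-stranded RNA, and Rbm15. Of the 5, only the window from 107 Mb, at 0.58, was called higher, and the other called windows began at 54 and 99 Mb. Of these 5 windows, 3 lay between 85 and 90 Mb, on both sides of the window from 86 to 87 Mb that had the second largest loss. Dclk2 and Sh3d19, lower in that window, were higher in the windows next to it: Dclk2 went from 61 to 128 pairs between 87 and 88 Mb, and Sh3d19 from 250 to 291 between 85 and 86 Mb.

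Windows poor in G+C lost the most. The 30 lower windows had a median G+C content of 40.4% and a range of 38.1 to 43.4%, and the windows called neither lower nor higher had a median of 43.1%. Among the 31 counted windows with the lowest G+C content, up to 40.9%, 18 were lower, and their median log2 ratio was -0.56. Among the next 31, 11 were lower and the median was -0.28. Among the 31 with the highest, from 43.2%, only 1 was lower and the median was -0.10. The Spearman correlation over the 93 windows, which share tables and neighbouring sequence, was 0.59, and over all counted windows of the genome it was 0.60. The lower windows also had fewer genes, with a median of 5.5 starts of protein-coding genes against 8 in the uncalled windows. The part of base composition and gene number in these differences was not tested.

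**Figure D3:**
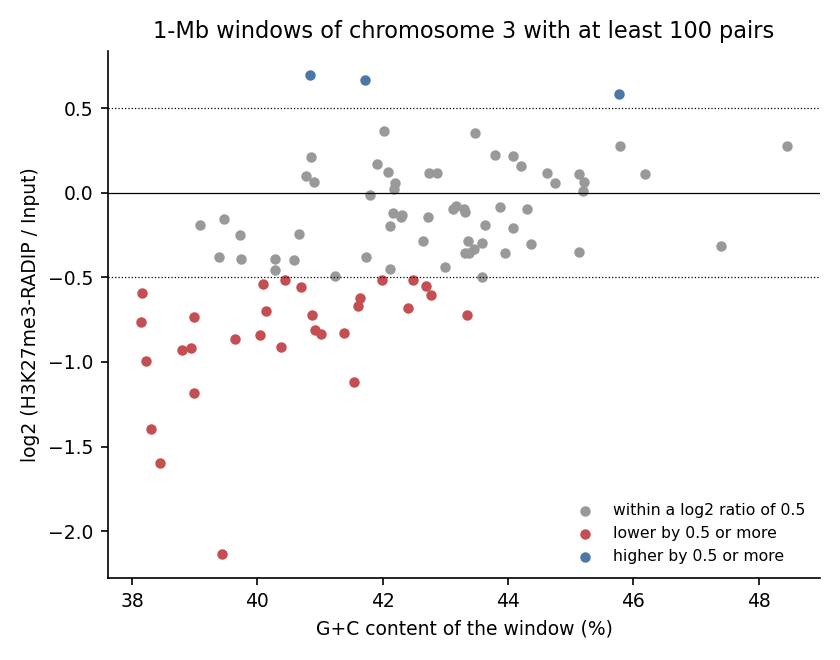
Log2 ratio of H3K27me3-RADIP over Input against G+C content for the 93 windows of 1 Mb on chromosome 3 with at least 100 pairs, 1 point per window, with dotted lines at a log2 ratio of 0.5 in either direction. Of the 30 lower windows (red), 18 are among the 31 with the lowest G+C content and 1 is among the 31 with the highest.

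The net loss lay inside the genes that made the RNA. In Input, 61.0% of the chromosome 3 pairs (60.6 to 61.5) had their DNA tag between the ends of the RNA's own gene, compared with 54.5% (54.0 to 55.0) in H3K27me3-RADIP. Such pairs fell by 4471 ppm, a log2 ratio of -0.38, slightly more than the net loss of the chromosome, whose other pairs changed little in sum. Pairs upstream of the gene changed by 114 ppm and pairs downstream by -83.4. Chromosomes 4 and 5 had differences inside genes of -4616 and -4324 ppm, but from 35890 and 35271 ppm in Input against 19241 on chromosome 3, so that their log2 ratios there were -0.20 and -0.19. As a share of the chromosome's own pairs, those inside genes changed by -6.50 points on chromosome 3, -8.90 points on chromosome 4 and -9.11 points on chromosome 5. Outside the genes, chromosome 4 gained 2397 upstream and 3842 downstream and chromosome 5 gained 2748 and 3646. Both chromosomes rose in total share and were set beside chromosome 3 for their length, not for their G+C content or number of pairs.

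The distance between the tags shifted in a like way. The median distance on chromosome 3 was 40.8 kb against 28.6 kb in Input, and the mean was 146 kb against 119 kb. The share of the chromosome's pairs over 100 kb apart was 28.2% (27.8 to 28.6) in Input and 34.2% (33.8 to 34.7) in H3K27me3-RADIP. In ppm of the whole table this class changed by 382 on chromosome 3, against 5204 on chromosome 4 and 5738 on chromosome 5, which held more pairs. As a share of the chromosome's own pairs it rose by 6.03 points on chromosome 3, 7.47 on chromosome 4 and 8.30 on chromosome 5. On chromosome 16, the autosome next lowest in G+C content and in log2 ratio, it rose by 5.94 points. Below 100 kb, pairs from 10 to 100 kb apart changed by -2014 on chromosome 3, pairs from 1 to 10 kb by -1920 and pairs under 1 kb by -888. On chromosome 4 these 3 classes changed by -964, -1583 and -1035, and on chromosome 5 by -1229, -1557 and -877. Within 25 kb the log2 ratio per table total, which carries the -0.22 of the whole chromosome, was -0.42 on chromosome 3 and -0.21 on both other chromosomes. As a share of the chromosome's own pairs, this class changed by -6.28 points on chromosome 3, -6.65 points on chromosome 4 and -7.35 points on chromosome 5, so that chromosome 3 did not stand out on that scale.

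**Figure D4:**
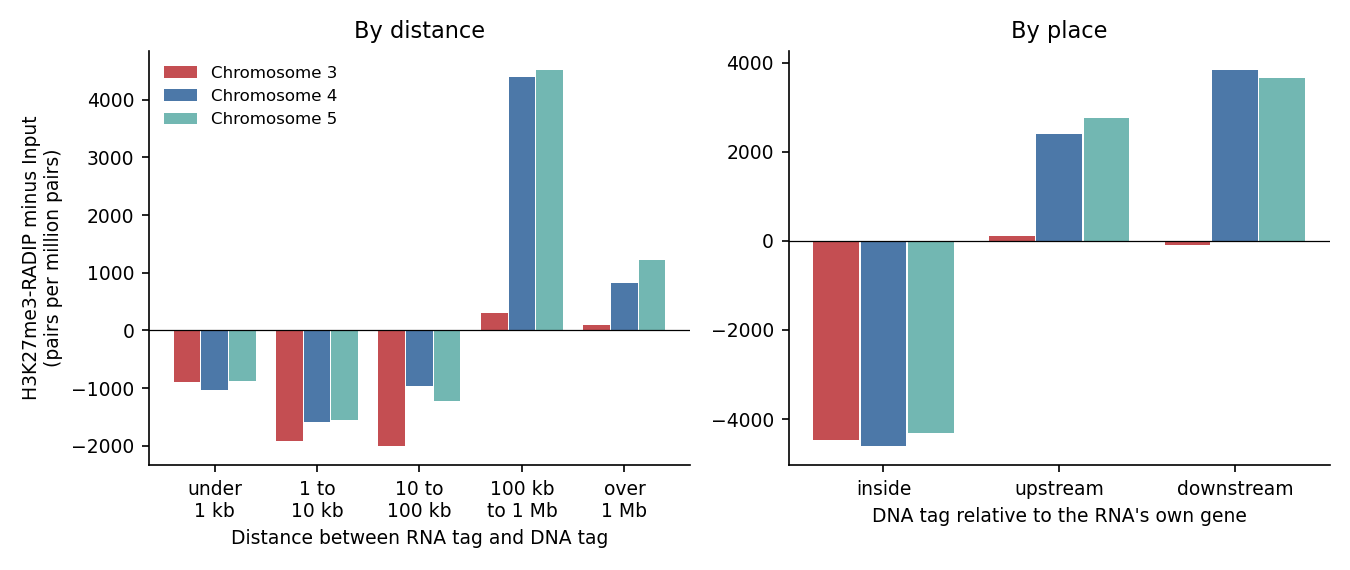
Difference in pairs per 1000000 pairs (ppm, H3K27me3-RADIP minus Input) by the distance between RNA tag and DNA tag and by the place of the DNA tag relative to the RNA's own gene, for chromosome 3 (red), 4 (blue) and 5 (teal), 1 merged table per condition. Inside the gene the bars lie between -4324 and -4616, from fewer Input pairs on chromosome 3 (log2 ratio -0.38 against -0.20 and -0.19), and outside it chromosome 3 stays near 0 and the others rise by 2397 to 3842.

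Long contacts were rarer on chromosome 3 than on any other chromosome. Pairs over 1 Mb apart were 0.829% of its pairs in Input (0.746 to 0.921) and 1.28% in H3K27me3-RADIP (1.18 to 1.40), the lowest of all 20 chromosomes in both tables. The median of the other autosomes was 2.59% and 4.37%. The 341 such pairs in Input came from 14 RNAs and the 492 in H3K27me3-RADIP from 19. Zfp704 went from 69 to 9 of them and St6galnac3 from 75 to 51. Jade1 went the other way, from 18 to 61, as did Ppp3ca, the calcineurin catalytic subunit gene, from 48 to 75 and Hs2st1, a heparan sulfate sulfotransferase gene, from 0 to 34. The longest reached 9.83 Mb in Input and 13.2 Mb in H3K27me3-RADIP, both from Jade1.

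The combinations of an RNA and a 25-kb bin changed little in number, 2255 in Input and 2293 in H3K27me3-RADIP. The 1603 combinations in both tables held 31464 pairs against 34549 in Input, a log2 ratio of -0.25, and accounted for -4238 of the net -4440 ppm. Combinations in Input only numbered 652 with 6590 pairs, and those in H3K27me3-RADIP only numbered 690 with 6860 pairs. Combinations in H3K27me3-RADIP only thus made up 4848 ppm, against 5049 ppm for those in Input only. On chromosomes 4 and 5 the same values were 11535 against 7206 and 11254 against 6917. These combinations depend on the authors' limit, so a combination absent from a table may have lain just beyond it.

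The pairs within a bin show the loss at the finest scale. RNA tag and DNA tag lay in the same 25-kb bin in 34.2% of the chromosome's Input pairs and 29.0% of its H3K27me3-RADIP pairs. The 5 fullest pairs of bins were all within Jade1, whose gene spans chr3:41555731-41616864. RNA and DNA both in chr3:41575001-41600000 had 264 and 184 pairs, a log2 ratio of -0.64, and both in chr3:41550001-41575000, which holds the promoter shown above, had 250 and 200, a log2 ratio of -0.44.

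A total of 540 RNAs had pairs on chromosome 3, 449 in Input, 452 in H3K27me3-RADIP and 361 in both. The loss was spread over RNAs as it was over windows: 337 had a lower share in H3K27me3-RADIP and 203 a higher one, the 5 with the largest loss held 16.6% of the summed losses, and 39 were needed for 50%. Of 143 RNAs found in both tables with at least 100 pairs together, 40 were lower by a log2 ratio of 0.5 or more (28.0%, against 19.7% of the 3743 RNAs of all chromosomes) and 6 were higher (4.20%, against 11.5%). Scaled within the chromosome, 25 were lower (17.5%, against 18.6%) and 10 higher (6.99%, against 11.7%). Their median log2 ratio was -0.26, compared with -0.05 over all RNAs and 0.03 and 0.02 on chromosomes 4 and 5. The 40 lower RNAs stood in 30 different windows from 16 to 158 Mb. Inside their own gene, 125 of the 143 had a lower share in H3K27me3-RADIP (87.4%, against 74.9% over all chromosomes). Outside it, 74 had a higher share (51.7%, against 63.6%), and 62 were lower in both places (43.4%, against 29.7%). These counts use the table totals and so carry the log2 ratio of -0.22 of the whole chromosome. As a share of the own pairs, those inside genes changed by -6.50 points on chromosome 3 and -8.27 points over all chromosomes.

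**Figure D5:**
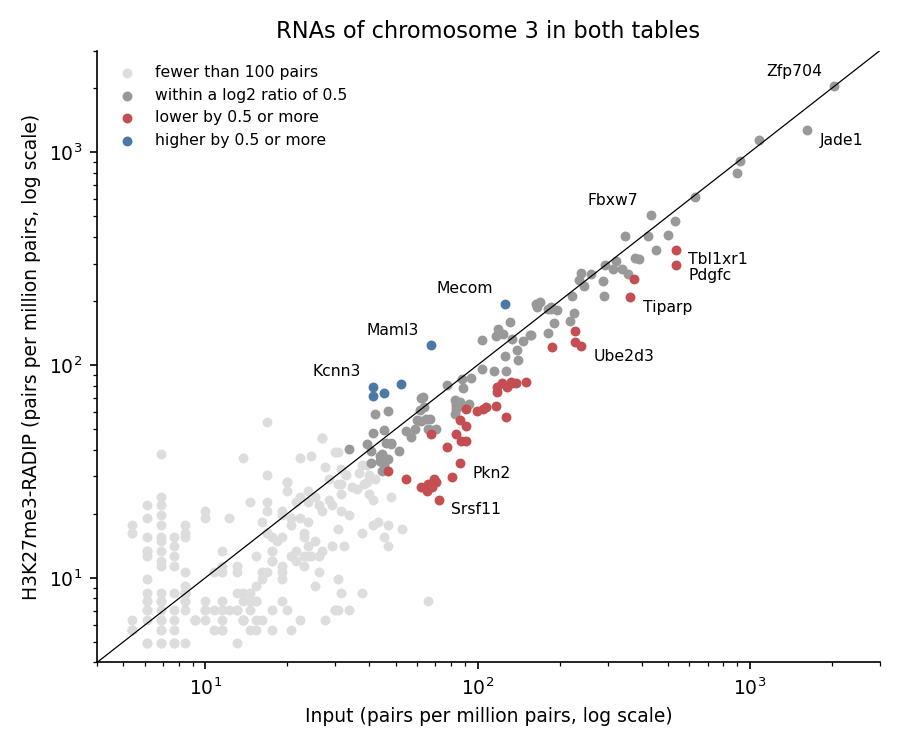
Pairs per 1000000 pairs (ppm) of each RNA with pairs on chromosome 3 in both tables, in Input and in H3K27me3-RADIP, on log scales, with the line of equal share. Of the 143 RNAs with at least 100 pairs, 40 (red) lie below the line by a log2 ratio of 0.5 or more and 6 (blue) above it by as much, and of the labelled RNAs with the most pairs Zfp704 lies on the line and Jade1 below it.

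Of the 10 RNAs with the most pairs, Tbl1xr1 and Jade1 had the lowest ratios, and the counting intervals of Zfp704, St6galnac3, Fndc3b and Elovl6 included 0. Zfp704 (chr3:9427020-9610085) had 2896 pairs against 2668 in Input, a log2 ratio of 0.00 (-0.07 to 0.08). Jade1 had 2124 and 1799, a log2 ratio of -0.36 (-0.45 to -0.27). St6galnac3 had 1407 and 1615, a log2 ratio of 0.08 (-0.02 to 0.19). Zfp704 and St6galnac3 reached far, with median distances of 209 and 223 kb and of 224 and 223 kb. Fndc3b had 1196 and 1284 pairs, and Elovl6, a fatty acid elongase gene, had 821 and 873, both within 0.03 of a log2 ratio of 0. Iqschfp, a read-through of Iqcj and Schip1 whose tags cannot be told from theirs on the same strand, had 1173 and 1134, a log2 ratio of -0.17 (-0.28 to -0.05). Spata5 had 695 and 674 pairs, a log2 ratio of -0.16, and Ppp3ca had 654 and 577, a log2 ratio of -0.30. Fbxw7, the substrate receptor of a ubiquitin ligase, was the only member of the 10 whose interval lay above 0, with 564 and 715 pairs and a log2 ratio of 0.23 (0.06 to 0.39).

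The largest losses fell on genes of unlike function. Jade1 fell by 356 ppm and Pdgfc (chr3:81036416-81214040) by 240, from 697 to 416 pairs, a log2 ratio of -0.86 (-1.04 to -0.68). Tbl1xr1, part of the NCoR and SMRT corepressor complexes, went from 697 to 494 pairs, a log2 ratio of -0.61 (-0.78 to -0.45). Tiparp, a mono-ADP-ribosyltransferase gene, went from 474 to 294, a log2 ratio of -0.81 (-1.02 to -0.59). The others were Lrba with 489 and 359 pairs, the ubiquitin-conjugating enzyme gene Ube2d3 with 314 and 173, Fxr1 of the fragile X protein family with 590 and 493, and Mme, which encodes neprilysin, with 297 and 182. Fxr1 lost pairs while its median distance went from 35.5 to 101 kb, whereas Mme had 32.9 and 27.1 kb.

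The lowest ratios belonged to less abundant RNAs. Srsf11, a splicing factor gene of the SR family, had 94 and 33 pairs, a log2 ratio of -1.63 (-2.25 to -1.04), and all lay within 100 kb. Smc4, a condensin subunit gene, had 92 and 40, a log2 ratio of -1.32 (-1.89 to -0.77). The kinase gene Pkn2, whose promoter is shown above, had 112 and 49, a log2 ratio of -1.31 (-1.82 to -0.81). Tsc22d2 had 105 and 42 pairs, 4932438A13Rik had 85 and 36, and Gstcd had 89 and 38. These 6 genes were from 26.2 to 190 kb long.

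The 6 RNAs called higher came from long genes, from 146 to 597 kb. Kcnn3, a calcium-activated potassium channel gene (chr3:89520164-89675132), had 54 and 112 pairs, a log2 ratio of 0.94 (0.45 to 1.43). Maml3, a Notch coactivator gene, had 88 and 175, a log2 ratio of 0.88 (0.50 to 1.26). Mecom, a zinc finger transcription factor gene with a PR domain, had 165 and 275, a log2 ratio of 0.62 (0.34 to 0.91). The potassium channel gene Kcnd3 had 54 and 101 pairs, Pde4dip had 59 and 105, and Pag1 had 68 and 115. Among RNAs with the largest gains in ppm, Fbxw7 had a median distance of 90.0 and 185 kb. Hs2st1 had 454 and 572 pairs, Tpd52 had 312 and 383, and the connexin gene Gja5, below the limit of 100 pairs, had 22 and 76.

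Gene length moved with the ratio. The 48 shortest of the counted RNAs, from genes of up to 64.0 kb, had a median log2 ratio of -0.42, and 20 were lower and 0 higher. The 47 of middle length had a median of -0.24, with 12 lower. The 48 longest, from 143 kb, had a median of -0.11, with 8 lower and 6 higher. The Spearman correlation of length and ratio over the 143 RNAs was 0.36. The part of gene length in the differences between RNAs was not tested.

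Of RNAs in 1 table only, 88 were in Input with 932 pairs and 91 in H3K27me3-RADIP with 921 pairs, or 16.3% and 16.9% of the RNAs, against 11.8% and 15.7% over all chromosomes. An RNA is listed only where a combination passed the authors' limit, so these RNAs may have had unlisted pairs in the other table and no fold is given. In H3K27me3-RADIP only, the protocadherin gene Dchs2 had 27 pairs, the kinase gene Dclk1 26, Gm17359 26 and Spry1, an antagonist of receptor tyrosine kinase signalling, 22. In Input only, the centriole gene Sclt1 had 46 pairs, the collagen gene Col24a1 29, Naaladl2 21 and Rbis 20. Sclt1 lies next to Jade1, in the window with the largest loss.

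Developmental regulators, the class of gene on which H3K27me3 is best known, did not have a lower share in sum. Of 25 such genes on the chromosome, 15 had pairs as RNA, 9 with a higher share and 6 with a lower one, and their 1128 and 1331 pairs gave a log2 ratio of 0.12, or 0.02 without Mecom, which was left out after its values were seen. Of the 4 that were counted, Mecom was higher and none was lower, beside 28.0% lower and 4.20% higher over all counted RNAs of the chromosome. The Notch receptor gene Notch2 had 242 and 264 pairs, the forkhead factor gene Foxo1 340 and 380, and the planar polarity gene Vangl1 237 and 200. Below 100 pairs, and chosen after their values were seen, the Wnt effector gene Lef1 had 18 and 52 and the T-box gene Tbx15 had 9 and 34. As DNA targets, the 25-kb bins that hold the starts of these 25 genes received 324 and 384 pairs, a log2 ratio of 0.13. Most of these pairs, 253 and 280, came from the RNA of another gene.

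Single developmental starts went both ways. The Sox2 bin, at the start of a core pluripotency factor, had 54 and 39 pairs, led by the RNA of Sox2ot, the noncoding gene it lies in. The Notch2 bin had 12 and 30 pairs and the Vangl1 bin 21 and 33, from their own RNA apart from 10 in the Vangl1 bin of H3K27me3-RADIP. The Crabp2 bin had 32 and 30, led by the RNA of Isg20l2. The start of Kcnn3 received 9 and 10 pairs, all from the RNA of other genes, so its gain as an RNA lay elsewhere in the gene.

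Of 14 genes of RNA processing on the chromosome, 11 had pairs, 1616 and 1230 in all, a log2 ratio of -0.51 beside -0.22 for the whole chromosome. Of 6 counted, Srsf11, Fubp1 and Mbnl1 were lower, with 181 and 117 pairs for Fubp1 and 154 and 111 for the splicing regulator Mbnl1, and none was higher, against 28.0% lower on the chromosome and 19.7% over all RNAs. Fxr1 and Rsrc1, with 379 and 300 pairs, were called neither way. The median log2 ratio of the counted members was -0.52. The bins of these 14 gene starts went from 391 to 261 pairs, a log2 ratio of -0.70.

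Genes listed for chromatin and nucleic acid modification had 1425 and 1195 pairs over 14 members, a log2 ratio of -0.37. Of 9 counted, 4 were lower, namely Smc4, Ythdf3, Trim33 and Arnt, and none was higher, against the same 28.0% and 19.7%. Of these, Smc4 encodes a condensin subunit, Ythdf3 a reader of m6A in RNA and Arnt a basic helix-loop-helix transcription factor, none of them a modifying enzyme, while Trim33 encodes a ubiquitin ligase. Ythdf3 had 101 and 58 pairs. The DNA demethylase gene Tet2 had 284 and 229, the histone methyltransferase gene Ash1l 243 and 259, and Gatad2b 205 and 195, all called neither way. Phc3, which encodes a subunit of Polycomb repressive complex 1, had 71 and 69 pairs, a log2 ratio of -0.16.

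Genes of signalling and the cell cycle had 3561 and 2933 pairs over 18 members, a log2 ratio of -0.40, with Tbl1xr1, Ect2 and Ube2d3 lower and none higher of 12 counted, a share close to the 28.0% of the chromosome. Tspan5 had 511 and 447 pairs and Rapgef2 had 321 and 334. Genes of neuronal adhesion, channels and synapses had the sums nearest each other among the full lists, with 969 and 1018 pairs over 16 members and a log2 ratio of -0.05. Without Kcnn3, an RNA named above for its gain, the log2 ratio was -0.13. Of 7 counted, Kcnn3 and Kcnd3 were higher and none was lower, against 4.20% higher and 28.0% lower on the chromosome and 11.5% and 19.7% over all RNAs. Ank2 had 255 and 258 pairs, Nbea 250 and 223, and Adgrl2 114 and 91. The bins of the gene starts in this list, however, received 53 pairs in Input and 124 in H3K27me3-RADIP. None of the list medians, from -0.52 to 0.03, was tested against the median of -0.26 over the counted RNAs of the chromosome or of -0.05 over all RNAs. The lists also differed in gene length. Kcnn3, Kcnd3, Adgrl2, Nbea and Ank2 were from 155 to 578 kb long. Srsf11, Fubp1 and Fxr1 were 26.2, 26.4 and 50.4 kb, though Mbnl1 and Rsrc1 were 157 and 377 kb. The part of gene length in the differences between lists was not tested.

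Most pairs came from introns in both tables. RNA tags in introns of protein-coding genes made up 84.3% of the chromosome's pairs in Input (83.9 to 84.6) and 84.9% in H3K27me3-RADIP (84.6 to 85.3). Tags in coding sequence made up 4.34% and 4.29%. Tags annotated only as exon of a protein-coding gene went from 3.20% (3.03 to 3.37) to 2.67% (2.52 to 2.84), a log2 ratio of -0.48 per table total, and 5′ UTR tags from 1.56% (1.44 to 1.68) to 1.32% (1.21 to 1.44), a log2 ratio of -0.45. These were the classes with the lowest ratios. Tags of lncRNAs made up 2.20% and 2.52%, beside 2.91% and 3.47% over all chromosomes. Per table total their log2 ratio was -0.02, which carries the -0.22 of the whole chromosome, and over all chromosomes it was 0.25.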

How the data were processed

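Members and gene lists were chosen with earlier results of these data known. The authors split reads at the adaptor, aligned both tags to mm10 (BWA), retained unique alignments outside blacklisted regions, annotated RNA tags with GENCODE, merged the replicates of a condition and scored each combination of an RNA and a 25-kb bin with a modified CHiCANE model. The deposited tables give its p-value and its q-value, adjusted by the Benjamini–Hochberg method and at most 0.1. The submitters' processing notes list BWA 0.7.15-r1140, CASAVA 1.8.2 and STAR 2.5.0a.

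Table lines with both tags on chromosome 3 were counted as pairs, with Python 3.11.15, numpy 2.4.6, pandas 2.3.3, scipy 1.17.1 and matplotlib 3.10.9. Distances ran between tag centres, and windows were set by the DNA tag. Shares carry 95% Wilson intervals and log2 ratios exact conditional intervals. Windows needed 100 pairs over both tables, and RNAs also a pair in each. Repeated tag positions made up 6.40% of the chromosome 3 pairs in Input and 9.56% in H3K27me3-RADIP, and copies made by amplification cannot be removed. For gene positions an earlier GENCODE release for mm10 was used, in which all 540 RNAs were found. The counting was tested on simulated data. ChIP, Hi-C and expression data were not analysed here.

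The named RNAs were the 10 with the most pairs, the 8 with the largest gain and the 8 with the largest loss in ppm, the 6 highest and 6 lowest log2 ratios among counted RNAs, the 4 with the most pairs in each table alone, and the 4 with the most pairs per gene list. For developmental genes the 4 fullest start bins were added. The named windows were the 5 with the most pairs, the largest loss and the largest gain. Others were named after their values were seen.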

Additional observations from a re-analysis of the deposited data

Results flagged for a closer look

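RNAs of chromosome 3 had 28 listed pairs with DNA of other chromosomes in H3K27me3-RADIP and none in Input. They came from 3 RNAs, with 12 pairs of Zfp704 and 8 of Tbl1xr1 on chromosome 11 and 8 pairs of Jade1 on chromosome 17. These pairs lie outside the comparison above, which takes pairs with both tags on chromosome 3, and were singled out because Input, the control, lists none. Input may hold such pairs that did not pass the authors' limit.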

How the results depend on the processing

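No paired analysis was possible because the authors merged the libraries of each condition into 1 table, so the replicate numbers of the labels cannot be used, and no library could be left out. The log2 ratio of the chromosome 3 share stayed below 0 in every setting tried, at -0.27 without the 10 RNAs with the most pairs, -0.17 when combinations of an RNA and a bin were counted and -0.17 without the 5 windows with the largest loss, a setting added after the data were seen. Under TMM factors, also added then, it was -0.15, since they raised all log2 ratios by 0.07. Counts of windows lower and higher were 47 and 7 with windows of 500 kb, 18 and 1 with 2 Mb, 5 and 0 at a log2 ratio of at least 1, and 18 and 5 as shares of the chromosome's own pairs. Higher windows numbered 5 with windows shifted by 500 kb and 9 with at least 20 pairs. Counts of RNAs lower and higher were 69 and 17 with at least 50 pairs, 11 and 0 at a log2 ratio of at least 1, and 25 and 10 as shares of the chromosome's own pairs. The excess over 100 kb was 6.92 points at a q-value of at most 0.01, 5.13 points without the 10 RNAs with the most pairs, and 0.455 points over 1 Mb. The gain in median distance, 12.2 kb, was 6.65 kb without those RNAs and 8.91 kb in combinations listed in both tables. The remaining 26 values kept their direction and moved within counting error or by less than 1.5 times. Windows and RNAs under 100 pairs have wide counting intervals, and contacts that missed the authors' limit were not analysed here.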

Other observations

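DNA tags on chromosome 3 were also paired with RNAs of other chromosomes. Input had 98 such pairs, of which 77 came from Gm22973, 12 from Malat1, a nuclear lncRNA, and 9 from the small nucleolar RNA gene Snord118. H3K27me3-RADIP had 9, all from Malat1.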
